A study of Mus musculus with 2 samples.

Results

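Gm26584 (ENSMUSG00000097474) is a long non-coding RNA (lncRNA) gene of the mouse whose exons lie across the start of Slc7a2, on the opposite strand. It was taken by its name from a table of 614 known lncRNAs measured in mouse liver, and is 1 of these 614. Its level and its ratio between diets are the values for which it was chosen, so both are given as a description and carry no test. The study set C57BL/6 wildtype mice on a high fat diet (60% fat, 23 weeks) against mice on a normal diet, all at postnatal week 27. Each diet has 1 RNA sequencing library of total RNA, here the HFD library and the ND library, and the labels do not say how many animals a library holds. There is therefore no replicate error, and every interval below covers counting error only.

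Slc7a2 encodes CAT-2, a transporter that carries the cationic amino acids arginine, lysine and ornithine across the plasma membrane. In liver the low-affinity form of CAT-2, made by alternative splicing, is the main one, and hepatocytes split arginine with the arginase of the urea cycle. An antisense lncRNA is transcribed from the strand opposite a coding gene. Such RNAs are known in some loci to act on the promoter or the transcript of their partner, and in others no function is known.

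Gm26584 lies on chromosome 8, at chr8:40862395-40865647 on the minus strand of GRCm38, in the GENCODE M21 annotation. It is annotated as a lincRNA with 1 transcript of 2 exons, 1118 and 2098 bases long. Slc7a2 occupies chr8:40862396-40922308 on the plus strand. The 3′ end of the lncRNA therefore passes the first annotated base of Slc7a2 by 1 base, and the other 3215 of its 3216 exon bases lie within the span of Slc7a2. Of these, 635 bases (19.7% of the exons of Gm26584) are shared with Slc7a2 exons and 2580 fall in Slc7a2 introns. None of the shared bases is coding. The shared bases form 2 stretches of 162 and 473 bases, 20 bases apart, which are the alternative untranslated first exons of Slc7a2. Of the 5 annotated Slc7a2 transcripts, 3 (Slc7a2-201, Slc7a2-202 and Slc7a2-205) start inside Gm26584. The other two start 12552 and 36042 bases downstream of the first Slc7a2 base, outside the lncRNA.

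**Figure D1:**
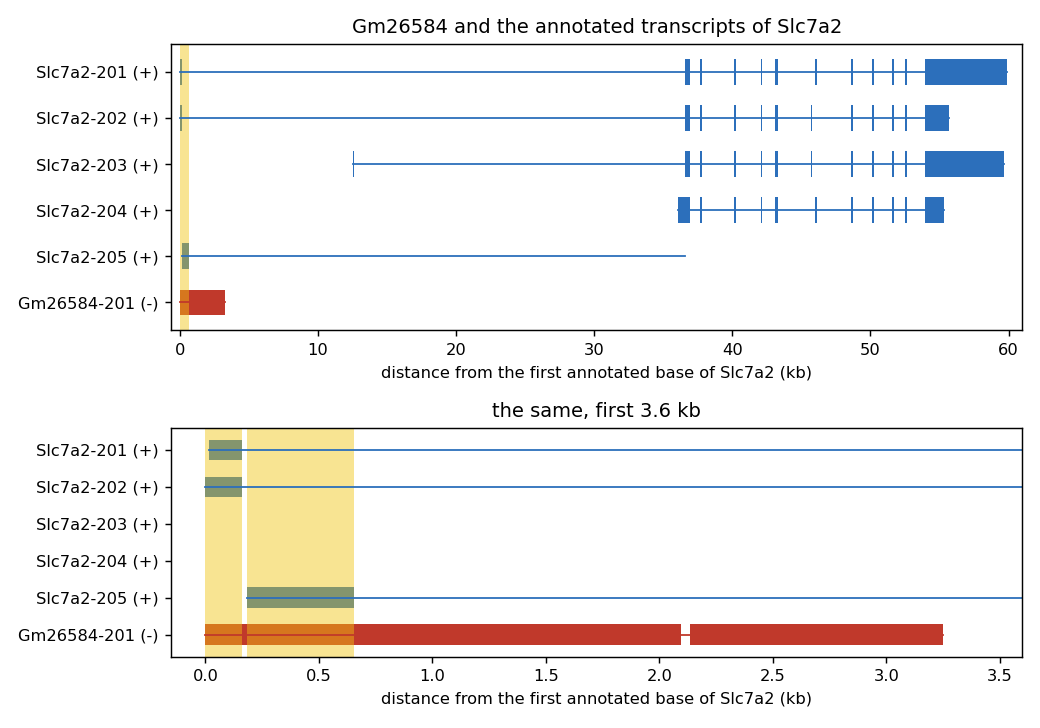
Exons (boxes) and spans (lines) of Gm26584-201 (red, minus strand) and of the 5 Slc7a2 transcripts (blue, plus strand), by distance in kb from the first annotated base of Slc7a2, over the whole gene (top) and its first 3.6 kb (bottom). Yellow marks the 162 and 473 shared exon bases, which sit at the 3′ end of Gm26584 and at the 5′ end of Slc7a2.

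The sequences at both edges of the shared region show how the transcripts face each other. The last bases of Gm26584 are the reverse complement of the first bases of Slc7a2-202, in capitals, with the base beyond Slc7a2 in lower case (chr8:40862395-40862424).
Gm26584, bases 3187 to 3216, minus strand: AGAAGCTCCCGCCGCCGAGCTTGCAGAAGg
Slc7a2-202, bases 1 to 29, plus strand: CTTCTGCAAGCTCGGCGGCGGGAGCTTCT

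The inner edge of the region (chr8:40863036-40863065) is where the first exon of Slc7a2-205 ends. Capitals mark the exon bases of Slc7a2-205, and the lower case bases lie in its intron, which opens with gtaagt on the plus strand, the usual form of a 5′ splice site. Gm26584 continues through this point without a break.
Gm26584, bases 2546 to 2575, minus strand: ttttacctgacttacCCAATCCACAGCAAG
Slc7a2-205 with the start of its intron, plus strand: CTTGCTGTGGATTGGgtaagtcaggtaaaa

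The 5′ end of Gm26584 is shown because it shares no base with any Slc7a2 exon. It lies at chr8:40865348-40865647 on the minus strand, within Slc7a2 introns.
Gm26584, bases 1 to 300: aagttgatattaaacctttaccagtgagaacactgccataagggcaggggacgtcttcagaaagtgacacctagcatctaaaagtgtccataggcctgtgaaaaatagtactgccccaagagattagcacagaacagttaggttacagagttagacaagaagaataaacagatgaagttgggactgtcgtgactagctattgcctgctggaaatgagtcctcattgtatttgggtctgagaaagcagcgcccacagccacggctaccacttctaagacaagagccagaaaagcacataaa

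The junction of its exons is shown for its unusual form. The annotated intron between them is 37 bases long, and exon 2 (capitals) opens with a run of 20 CA units after its first base. Of 2077 annotated introns in transcripts of the listed lncRNAs, 8 are shorter than 50 bases.
Gm26584, bases 1089 to 1148: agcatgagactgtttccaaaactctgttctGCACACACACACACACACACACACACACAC

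The part of the transcript that covers the start of Slc7a2 differs from the rest in composition. From base 2561, the edge of the shared region, to the 3′ end, 65.7% of 656 bases were G or C, with 54 CpG dinucleotides and an observed to expected CpG ratio of 0.76. Before this edge, 40.9% of 2560 bases were G or C, with 30 CpG and a ratio of 0.28. The rise lies inside the shared region and not at its edge. In windows of 100 bases the share of G and C reached at most 51% before the edge, and first passed this at bases 2601 to 2700, with 54%. Outside Slc7a2 itself, 0 other genes had a transcript with a stretch of at least 50 bases at 95% identity or more to Gm26584, with simple repeats masked.

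**Figure D2:**
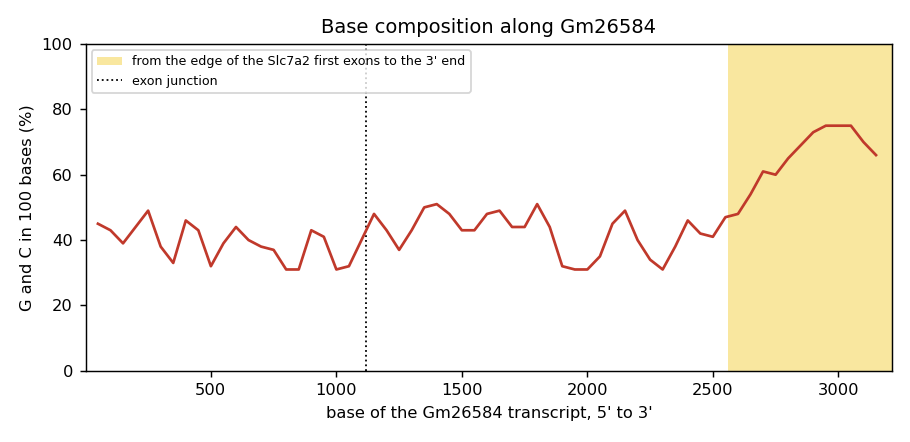
Share of G and C in windows of 100 bases (step of 50 bases) along the Gm26584 transcript from its 5′ to its 3′ end, with the exon junction dotted and the part from base 2561 onward in yellow. The share peaks at 75% within that part.

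Gm26584 had 1660 reads in the HFD library and 11208 reads in the ND library. Per 1000000 reads of the total to which the authors scaled the table (CPM), its level was 8577 and 46277. The HFD library is the low one, and the ND library held 5.40 times its level (95% exact Clopper-Pearson interval 5.02 to 5.81), a log2 ratio of -2.43 (-2.54 to -2.33). As a share of all read pairs of the table, Gm26584 made up 0.858% (0.801 to 0.918) in the HFD library and 4.63% (4.51 to 4.75) in the ND library. These intervals hold no spread between animals. In the authors' deposited table the fold change is 0.185, the adjusted p is listed as 0 and the gene is marked significant. In liver RNA, fewer cells that make a transcript and less of it per cell cannot be told apart.

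The counting did not come with a stated strand setting, so reads of Gm26584 cannot be told apart from reads of Slc7a2 over the 635 shared exon bases, nor from unspliced Slc7a2 RNA over the 2580 bases in its introns. Slc7a2 itself is not among the listed genes and was not analysed here. How much of the difference between libraries belongs to either strand was not tested. The same limit holds for each other lncRNA below that shares exon bases with a coding gene on the opposite strand. Its level and ratio may include reads of that gene.

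By level, Gm26584 ranked 6th of 614 in the ND library, below 1810014B01Rik (63222 CPM) and above Gm26917 (29158 CPM). 1810014B01Rik, annotated as a transcribed pseudogene, lies opposite the chaperone gene Hsp90b1. In the HFD library Gm26584 ranked 20th, between Gm9968 (8639 CPM) and Gm26540 (8050 CPM), whose levels differ from its own by less than 1.1-fold. Its level was 374 times the table's median in the ND library and 69.2 times the median in the HFD library, so it stayed among the abundant lncRNAs in both. Per kb of exon it had 3485 and 516 reads per kb, which ranked 5th and 32nd, against medians of 19.8 and 16.8 reads per kb over the lncRNAs matched to the annotation.

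The difference of 37700 CPM between the libraries was the largest in the table in absolute terms. It was followed by that of 1810014B01Rik, with 99722 CPM against 63222 CPM, in the opposite direction. Summed over the 296 lncRNAs with a lower CPM in the HFD library, the difference came to 135724 CPM, of which Gm26584 made up 27.8%. Since CPM values of a library are shares of a fixed total, a lower share of 1 abundant lncRNA raises the others. Without Gm26584 in the totals, the log2 ratios of all other lncRNAs would be lower by 0.06.

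Among lncRNAs of like level, those within 2-fold of its mean log2 CPM, Gm26584 stood at the low end. The window held 11 others, with log2 ratios from -0.53 (Gm26917) to 0.63 (Gm26880) and a median of -0.05. Of the 11, 10 were less than 1.5-fold apart. A gap of 1.5-fold or more was found for 124 of all 364 lncRNAs with at least 20 reads, most of which had far fewer reads than these 11. All 11 together held 15.7% of the reads in the HFD library and 15.2% in the ND library. Their CPM ran from 9145 to 29793 in the HFD library and from 8283 to 29158 in the ND library. Gm26584 lay below this range in the former and above it in the latter. Since the window is centred on its mean level, this restates its ratio.

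**Figure D3:**
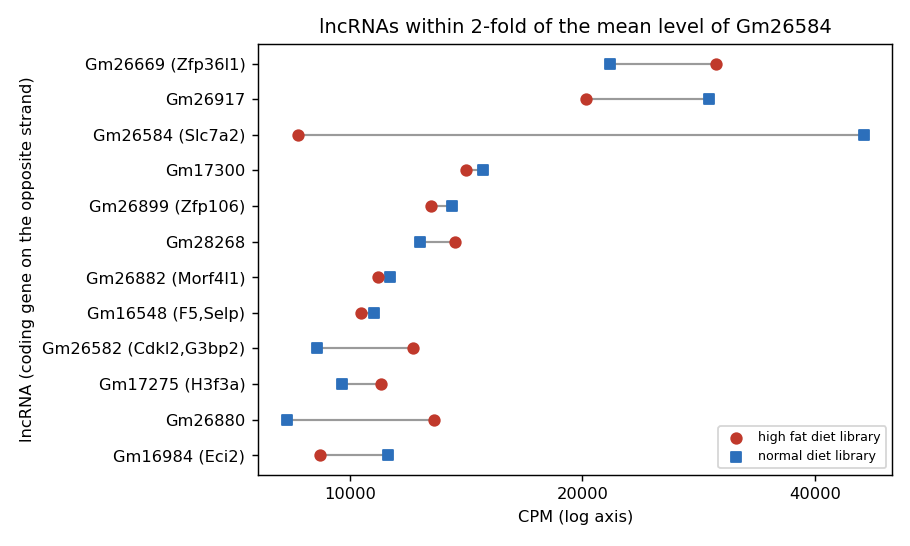
CPM on a log axis in the HFD library (red circles) and the ND library (blue squares) for Gm26584 and the 11 lncRNAs within 2-fold of its mean level, with the coding gene on the opposite strand in brackets. The pair of Gm26584, at 8577 and 46277 CPM, is the widest of the 12.

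The neighbours next to it in mean level are mostly the same lncRNAs as in the window of like level. Only Gm26697, Gm26905 and 1810014B01Rik lie outside that window. Above it, Gm26917 had 3918 reads in the HFD library and 7062 in the ND library (log2 ratio -0.53, -0.61 to -0.45). Gm26669, opposite the gene of the mRNA decay factor Zfp36l1, had 5766 and 5258 reads (0.46). The next 3 above were Gm26697, opposite Slc27a2 (-0.28), Gm26905 (-0.18) and 1810014B01Rik (0.66). Below it, Gm17300, Gm26899, Gm28268, Gm26882 and Gm16548 had log2 ratios between -0.09 and 0.15. None of these 10 reached a 2-fold difference, which 15.9% of all 364 lncRNAs with at least 20 reads did. Most of the 364 had far fewer reads than these 10, so that counting error moves their ratios more. Among the 212 with at least 100 reads, 19 were at least 2-fold apart.

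Over the table, 364 lncRNAs reached 20 reads in at least 1 library. Of these, 58 (15.9%) differed at least 2-fold, in that 30 (8.24%) were at least 2-fold lower in the HFD library, Gm26584 among them, and 28 (7.69%) were at least 2-fold higher. Since the gene was picked from this contrast, the share is background only. Of the 364, 5 had a lower ratio than Gm26584, with 20 to 44 reads in the ND library. Of the other 363, 23 had a counting interval that reached down to the upper limit of Gm26584, and none of these had more than 56 reads in its higher library. Among the 212 lncRNAs with at least 100 reads, Gm26584 had the lowest ratio.

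**Figure D4:**
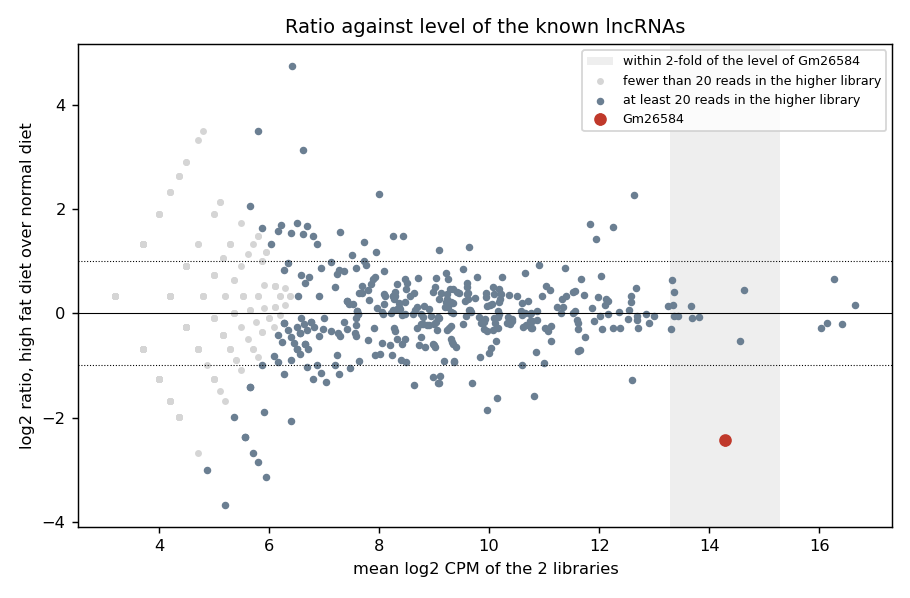
Log2 ratio of HFD over ND against the mean log2 CPM for the 606 known lncRNAs with read pairs in both libraries, with Gm26584 in red (its counting interval is smaller than the point). Dotted lines mark 2-fold, and the grey band holds lncRNAs within 2-fold of its level, where Gm26584 at -2.43 lies apart from the others, which run from -0.53 to 0.63.

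The lncRNAs most like it in ratio, by the absolute difference of log2 ratios over the 2 libraries and given 100 reads or more in either, were all less abundant. Gm15758, on chromosome 8 at a distance of 13.8 Mb, had 102 reads in the HFD library against 462 (log2 ratio -1.86, -2.32 to -1.41). Gm26608 had 124 against 478 (-1.62). Neat1, the scaffold of nuclear paraspeckles, had 200 against 754 (-1.59), D5Ertd615e 48 against 156 (-1.38) and 9530052E02Rik, opposite the insulin receptor substrate gene Irs2, 66 against 210 (-1.35). None of the 211 other lncRNAs with this many reads was closer to Gm26584 than Gm15758, which was 0.58 away on the log2 scale and whose interval began just above the upper limit of Gm26584.

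Other lncRNAs share its place over the start of a coding gene. In 58 listed lncRNAs, exons shared at least 50 bases with an opposite coding gene and covered the 5′ end of that or another opposite coding gene. Of these, 39 had at least 20 reads. Gm26584 was the most abundant of the 39 and the lowest in ratio. The other 38 had a median log2 ratio of 0.18 and ranged from -1.41 (Gm26847, with 6 reads against 20) to 1.49. Of these, 34 differed by less than 2-fold, while 58 (15.9%) of all 364 differed by at least 2-fold. Next in reads were Gm26631, opposite the cytochrome c oxidase gene Cox5a, with 1982 and 2264 reads (0.13), Gm26719, opposite Cped1, with 1188 and 1420 (0.07), and D130020L05Rik, opposite Ppp4r3a, with 966 and 1028 (0.23). The ratios of the 38 others were of either sign, in part with counting intervals that include 0 (Gm26847, -3.91 to 0.54). The median over all 364 was -0.01. Whether a place across the 5′ end of a coding gene bears on the ratio was not tested.

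**Figure D5:**
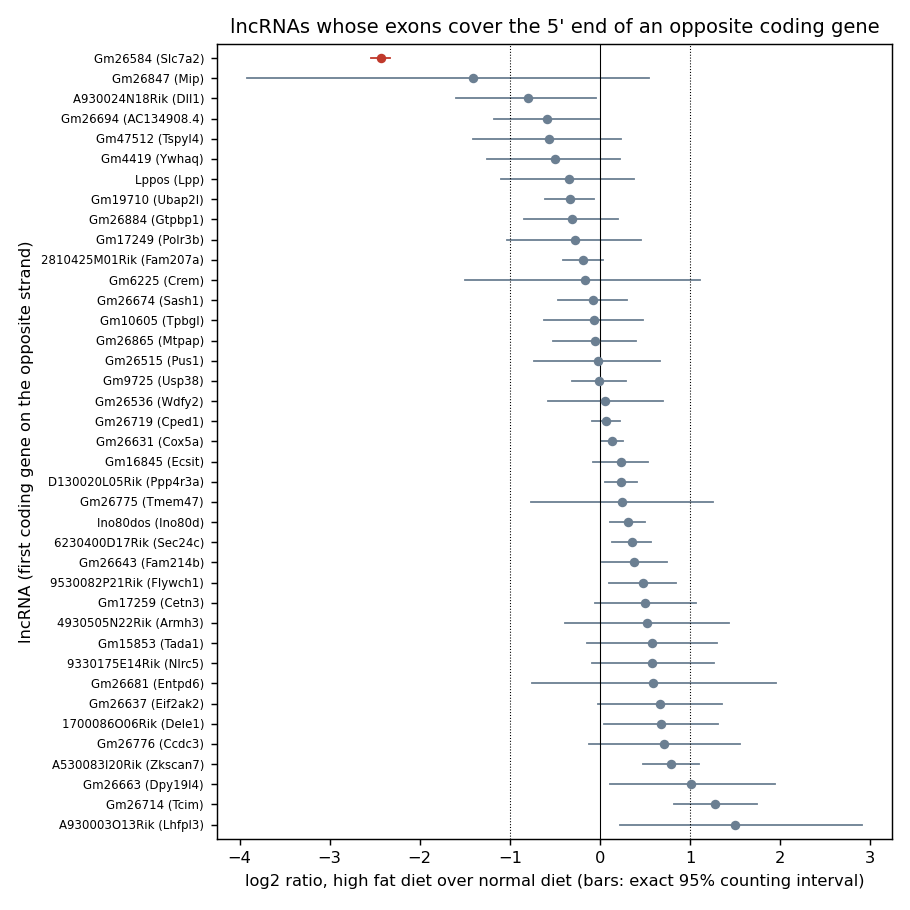
Log2 ratio of HFD over ND with exact 95% counting intervals for the 39 lncRNAs with at least 20 reads whose exons cover the 5′ end of an opposite coding gene. Brackets name the first, by alphabet, of the opposite coding genes that share at least 50 exon bases. Gm26584 (red) lies at -2.43 and the other 38 between -1.41 and 1.49, where dotted lines mark 2-fold.

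Of all lncRNAs that share at least 50 exon bases with an opposite coding gene, 177 had at least 20 reads, 11 of them at least 2-fold higher and 9 at least 2-fold lower in the HFD library. Together these are 11.3% of the 177, against 15.9% of all 364. Gm26584 ranked 5th of the 177 in level and had the lowest ratio. The 176 others had a median log2 ratio of 0.01, with quartiles of -0.26 and 0.37. Among these, 3 had a counting interval that reached down to that of Gm26584, none with more than 36 reads.

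The arginine and cationic amino acid list held 41 coding genes, among them transporters, the urea cycle enzymes, the nitric oxide synthases and the polyamine enzymes. Gm26584 was the 1 listed lncRNA that shared exon bases with any of them on the opposite strand. Of 55 other genes of amino acid metabolism, 0 had an lncRNA opposite their exons, and 2 had one within their span or on the same strand only. These were Gm26745 in the span of the tyrosine catabolism gene Hpd, with 100 reads against 316 (log2 ratio -1.34), and Gm26904 in that of the glycine methyltransferase gene Gnmt, with 216 against 284 (-0.07). Both share exon bases with a different coding gene on the opposite strand, Gm26745 with the proteasome gene Psmd9 over 1849 of its 1874 exon bases and Gm26904 with Bicral over 772 of 1742.

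Among 385 solute carrier genes, 5 had an lncRNA opposite their exons, Gm26584 included. Gm26697, opposite the fatty acid transport and activation gene Slc27a2, had 11774 reads in the HFD library and 17890 in the ND library, a log2 ratio of -0.28. Gm2061, opposite the manganese exporter gene Slc30a10, had 148 and 134 reads (0.47). 5033403F01Rik, opposite Slc35b3, had 2 and 4 reads, under the read minimum. Over all 364 lncRNAs with enough reads, 15.9% were at least 2-fold apart. Of the 4 here with enough reads, Gm26584 was the 1 beyond 2-fold, and it was chosen for its ratio. It also differs from Gm26697 and Gm2061 in its overlap, which holds 0 coding bases against 419 and 505.

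No other lncRNA matched to the annotation lies within 5 Mb of Gm26584. The 8 listed lncRNAs without a match have no known position. The nearest on chromosome 8 were Gm16793, 5.27 Mb away toward the start of the chromosome, with 124 reads in the HFD library and 152 in the ND library (log2 ratio 0.03), and Gm26768, 6.77 Mb away on the same side, with 124 and 134 (0.21). Gm26578, at 8.85 Mb, had 20 and 8 reads (1.65) with an interval of -0.15 to 3.77. None of the 3 was lower in the HFD library. Over the chromosome, 23 other lncRNAs had at least 20 reads, 3 of them at least 2-fold higher and 3 at least 2-fold lower, with a median log2 ratio of 0.08. This makes 26.1% of the 23, against 15.9% of the 364 in the whole table.

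The listed lncRNAs held 193260 reads in the HFD library and 241812 in the ND library, slightly fewer than the totals of 193538 and 242194 reads to which the values were scaled. Hepatocytes are the labelled source, although the protocol speaks of liver that was removed and frozen whole. Of 35 coding markers of hepatocytes and of other liver cells, 0 are listed in this table of lncRNAs, so the cell make-up of the libraries was not analysed here. Gm30097, which lies opposite the hepatocyte gene Fgg, ranked first in level in both libraries. It shares 115 of its 768 exon bases with Fgg, all of them coding, so its level may hold Fgg reads. Its rank was not used as a measure of hepatocyte content.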

How the data were processed

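The data are 2 deposited tables that list both libraries, 1 for 614 known and 1 for 272 numbered lncRNAs. HISAT2, HTSeq and DESeq and the genome build mm8 are named, per the submitters' processing notes. Versions, gene models and strandedness are not stated there. The deposited values are CPM of each table's reads, per the file headers normalized by the authors. The authors also deposited a fold change (ratio of high fat diet over normal diet), its log2 and p-values, printed only as theirs.

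Dividing each value by the smallest of its column gave whole reads for 100% of values (tolerance 1e-06). The totals to which the known table was scaled, which include a few reads of no listed lncRNA, were 193538 (high fat diet) and 242194 reads (normal diet). All numbers other than 1 were even, so intervals use pairs of 2 reads, and a value of 1 read, found 7 times and 1 time, was taken as 0. Ratios are of CPM with exact Clopper-Pearson 95% intervals (scipy 1.17.1). These were checked on counts simulated with counting error only, so the check does not cover spread between animals. The files give no positions. Genes were matched by Ensembl identifier to GENCODE M21 (GRCm38, not the build of the notes), 606 of 614, and all overlaps and coordinates are those of that annotation. A few of the 614 are typed there as pseudogene or protein coding, such as Fam169b, and are called lncRNAs here as the authors listed them. Sequences come from its transcripts, and copies were searched with blastn 2.17.0.

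Named lncRNAs are Gm26584, the 5 next above and 5 next below in mean log2 CPM, the 5 nearest in log2 ratio with at least 100 reads, those opposite genes of the amino acid lists or of solute carriers (1 of which is not reported here), and those within 5 Mb. Extremes of a group, the lncRNAs nearest on the chromosome, those covering a coding 5′ end and those next in rank in 1 library were named after their values were seen. The member, lists and rules were chosen with earlier results of these data known. Alternatives were scaling, pseudocount, read minimum, fold, window and overlap.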

Additional observations from a re-analysis of the deposited data

How the results depend on the processing

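Gm26584 stayed lower in the HFD library under all 9 alternatives of scaling, pseudocount and counting unit, with log2 ratios from -2.49 (totals without Gm26584) to -2.34 (totals over lncRNAs without coding exon overlap), each within its counting interval. Counting single reads leaves the ratio unchanged by construction, and pseudocounts of 1 and 5 reads could hardly move it (-2.43 each). Scaling would have to change by 2.70-fold to bring it to 2-fold. Gm26584 kept the lowest ratio in each of the 4 other windows of like level, which held 4 to 31 lncRNAs. The same held with 1 or 200 bases as the minimum overlap with opposite coding exons. The windows overlap and the gene was chosen by its ratio at like level, so these ranks are a description only. Its rank by level, 8th by mean log2 CPM, was 20th and 6th in the HFD and ND library alone, and per kb of exon 17th over both, 32nd and 5th. Called lncRNAs numbered 58 in the table, 124 at 1.5-fold, 15 at 4-fold, 146 without a read minimum and 19 with 100 reads, each by construction of the rule, and 33 with an exact binomial test on pairs, a comparison of these libraries and not of the diets. Median-ratio scaling (61) and totals without Gm26584 (62) kept the count within 1.5 times. The neighbourhood held 3 other lncRNAs matched to the annotation within 10 Mb and 0 within 5 Mb or 1 Mb. Totals over lncRNAs of like level, totals of both tables, totals without Gm26584 for the calls and the binomial test were added after seeing the data. No paired analysis was possible because there is only 1 library per diet, which also means that none could be left out. Depth does not limit Gm26584 itself, but 250 of 614 lncRNAs stayed below 20 reads.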

Other observations

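The table of 272 numbered lncRNAs, which carry no names or positions, was searched for entries with a ratio like that of Gm26584 after its value was seen. Of the 37 entries that reached 100 reads in at least 1 library, lnc_716 was nearest, with 82 reads in the HFD library against 634 in the ND library. It was 5.33-fold lower (log2 ratio -2.42, 95% interval -2.92 to -1.94), a difference of 0.02 from the log2 ratio of Gm26584 when each is scaled to its own table. Scaled to the reads of both tables together, an alternative added after seeing the data, lnc_716 had a log2 ratio of -2.60 and Gm26584 one of -2.41, a difference of 0.20. The next nearest, lnc_337, had 124 against 478 reads (-1.41). No numbered entry had the same reads as Gm26584 in both libraries. Where lnc_716 lies in the genome was not tested.

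On the chromosome of Gm26584 the other lncRNAs at least 2-fold lower in the HFD library were 3930402G23Rik, with 4 reads against 44, Gm15758 and 9530052E02Rik. On the same chromosome 3 were at least 2-fold higher. Together these were 26.1% of the 23 others with at least 20 reads, against 15.9% of all 364. Gm15758 lies 13.8 Mb from Gm26584 toward the end of the chromosome. 9530052E02Rik and 3930402G23Rik lie 29.8 Mb and 29.9 Mb from Gm26584 toward the start.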
